A study of Saccharomyces cerevisiae with 8 samples.

Results

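The comparison set 4 RNA libraries of budding yeast strains, GPD-SIR3-A2Q and SIR3Δ with 2 each, against 4 of GPD-SIR3 and WT, 2 each. The first 2 strains are classed here as defective in Sir3-dependent silencing and the others as competent. These are all 8 libraries of the series. All strains are Saccharomyces cerevisiae of the W303 background, and total RNA came from exponentially growing cells. GPD-SIR3-A2Q expresses, from the strong constitutive GPD promoter, a Sir3 protein with glutamine in place of the alanine after the start methionine. SIR3Δ lacks the gene, GPD-SIR3 expresses the unaltered protein from the GPD promoter, and WT is the wild type. The words defective and competent are names for these 2 classes of strains, not labels of the samples, and the labels give no mating type. At HMRA1 and the alpha- and haploid-specific genes described below, GPD-SIR3-A2Q lay between SIR3Δ and the competent strains. Of 5798 genes, 5473 had a scaled read count of at least 10 in at least 2 libraries and were tested. Just inside that limit were YGR066C at 10 and YAL018C at 10.06 in their second-highest library, and just outside it were YPR202W at 9.996 and RRT12 at 9.913.

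Sir3 is a nucleosome-binding protein that spreads with Sir2, a histone deacetylase, and Sir4, a scaffold, along the silent mating-type cassettes HML and HMR and inward from telomeres. When the cassettes are expressed in a haploid cell, the a1 and alpha2 proteins are made together and form the repressor that in diploid cells turns off the haploid-specific genes. These genes encode most of the mating pheromone pathway, and alpha1, the activator of the alpha-specific genes, is turned off by the same repressor.

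The a1-alpha2 repressor is known to bind sites with the ends TGT and ACATC. Of the 8 genes that were lower in the defective strains and held a match in the 500 bases before their start, 6 are shown. The others, ICS2 and TOS1, are not printed. The haploid-specific genes FUS3, STE18, FAR1, AXL1, STE4, RDH54 and STE12 fell too, but no match was found before them. The letters searched were TGTNNNNNNNNACATC, on both strands, in build R64. The fixed letters are in capitals, and each sequence is read 5′ to 3′ on the strand that holds the match. The HO site lies at chrIV:48430-48459 on the minus strand, RME1 at chrVII:584273-584302 minus, NEJ1 at chrXII:675582-675611 plus, PDE1 at chrVII:35400-35429 plus, GPA1 at chrVIII:115250-115279 minus and STE5 at chrIV:658139-658168 plus. The last sequence, at chrVII:144200-144229 plus, starts its match 159 bases after the end of IME4, a gene that rose. IME4 had no match in the 500 bases before its start. Only for IME4 were the gene itself and the bases after it searched too. No share of other genes with a match after their end was computed, so this site is not comparable to the other 6.
HO: aaaatcaTGTtattatttACATCaacatat
RME1: agtgagaTGTcacagattACATCaaaaggt
NEJ1: aaatccaTGTaaaaaaatACATCaatcata
PDE1: taacgtaTGTataatattACATCtgtcaca
GPA1: ctcagcaTGTtaaaaagcACATCaatttag
STE5: tgtagctTGTtaatttacACATCatgtact
IME4: gagtccgTGTatttttttACATCaactgga

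Such a match stood before 8 of the 83 genes that were lower in the defective strains (9.64%), before 3 of the 52 higher genes (5.77%) and before 96 of 5450 tested genes with such a window (1.76%). With a T required before ACATC, the shares were 4 of 83 (4.82%), 0 of 52 and 41 of 5450 (0.752%). The pheromone response element TGAAACA, to which the activator Ste12 is known to bind, was found before 31 of the 83 lower genes (37.3%), 2 of the 52 higher genes (3.85%) and 634 of all windows (11.6%). No window held a TGAAACA that overlapped an a1-alpha2 match. Of the lower pheromone response genes, FUS1 is shown with 2 such elements (chrIII:71611-71670, plus strand) and SST2 with 1 (chrXII:1041557-1041616, minus strand), in capitals, starting 192 and 250 bases before the gene.
FUS1: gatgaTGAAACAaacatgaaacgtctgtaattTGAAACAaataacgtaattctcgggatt
SST2: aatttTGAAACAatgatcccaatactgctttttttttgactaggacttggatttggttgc

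Reads on genes numbered 10447338 to 18077542 in the defective libraries and 7006670 to 16207210 in the competent ones. Levels below are the authors' scaled read counts, in which the genes of each library sum to 7006670. Differences are log2 of the scaled count plus 1, defective minus competent, from 1 limma model of the 4 strains with its SE, and p-values are adjusted over 5473 genes by the Benjamini-Hochberg method. Folds on that scale understate the difference of low genes. The median of all genes was −0.07. Nothing in the labels says whether the libraries of a strain are separate cultures, so the spread behind each p-value is that between libraries and may be technical.

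In all, 52 genes were higher (0.950% of those tested) and 83 lower (1.52%) in the defective strains at a limma adjusted p below 0.05. At 37 of the 52 and 36 of the 83 the difference was at least 2-fold. To tell a difference shared by a class from the departure of a single strain, the sum of squares between the 4 strain means was divided among defective minus competent, GPD-SIR3-A2Q minus SIR3Δ, and GPD-SIR3 minus WT. A gene with at least 75% on the first is called class-wide here, one with 50 to 75% mixed, and one with less than 50% strain-led. A single strain that stands apart from 3 equal ones gives 33.3%. Of all 5473 genes, 20.2% were class-wide, 20.1% mixed and 59.7% strain-led.

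The directions differed in make-up. Of the 83 lower genes, 52 were class-wide, 26 mixed and 5 strain-led. Of the 52 higher genes, 9 were class-wide, 10 mixed and 33 strain-led, and in 32 of these 33 GPD-SIR3 was the strain farthest from the rest. The 4 libraries of each class did not overlap at 74 of the 83 lower genes (7.29% of all tested genes were lower with no overlap) and at 23 of the 52 higher genes (1.83%). When GPD-SIR3 was left out and the defective strains were set against WT alone, 32 of the 83 remained lower (0.621% of all tested genes were called lower) and 8 of the 52 remained higher (0.164%). Without WT, 68 remained lower and 47 higher (1.74% and 1.48%), without SIR3Δ 28 and 24 (0.603% and 0.475%), and without GPD-SIR3-A2Q 77 and 43 (1.96% and 1.30%).

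**Figure D1:**
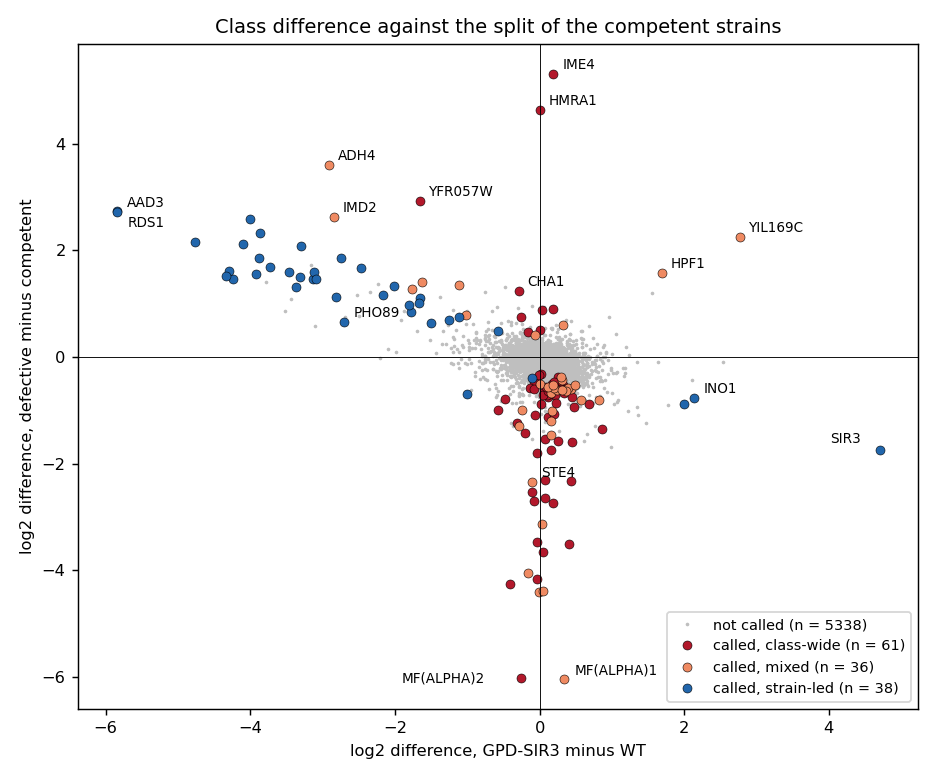
Log2 difference defective minus competent (vertical) against log2 difference GPD-SIR3 minus WT (horizontal) for 5473 genes, coloured by how much of the difference among the strains lies between the classes. Lower genes such as MF(ALPHA)2 stand near 0 on the horizontal axis, while most higher genes, such as RDS1 and AAD3 at −5.85, stand far to the left.

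SIR3 itself checks the labels of SIR3Δ and WT, but its level cannot tell GPD-SIR3-A2Q from GPD-SIR3. Its level was 13132 and 13217 in GPD-SIR3-A2Q, 39.1 and 36.8 in SIR3Δ, 10730 and 13865 in GPD-SIR3, and 448 and 484 in WT. SIR3Δ still held 177 reads, the labels do not say which part of the gene was deleted, and where in the gene these reads lie cannot be seen from gene totals. Each class held 1 strain with a high level. The class difference of −1.74 ± 0.10 (limma adjusted p = 9.44e-06) therefore held only 6.1% of the sum of squares. It turned to 2.47 without SIR3Δ and to 0.62 (limma adjusted p = 0.0623) without GPD-SIR3. SIR1, SIR2 and SIR4 had differences of −0.02 ± 0.18, 0.06 ± 0.14 and −0.06 ± 0.09 (limma adjusted p of 0.778 to 0.970).

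Expression at the silent cassette HMR marked the classes. HMRA1 (YCR097W, chromosome III, 293835 to 294321), which encodes a1, was at 7.58 and 13.4 in GPD-SIR3-A2Q and 58.5 and 48.9 in SIR3Δ, from 33 and 252 reads. It had 0 reads in all 4 libraries of GPD-SIR3 and WT. With the floor of 3 counts in each competent library, averaged over the class, HMRA1 was at least 17.3-fold higher in the defective class, at least 5.67-fold in GPD-SIR3-A2Q and at least 29-fold in SIR3Δ. HMRA1 passed the value filter only through defective libraries, and the competent zeros add no spread. The limma adjusted p of 7.52e-04 for the class difference is therefore no support beyond the reads. With any single library left out, the log2 class difference was 4.43 to 4.81. All 4 defective libraries lay above all competent ones, and the GPD-SIR3-A2Q libraries lay below those of SIR3Δ (GPD-SIR3-A2Q minus SIR3Δ −2.29 ± 0.67, limma adjusted p = 0.382). DESeq2 and limma-voom called this strain difference, and edgeR did not. In RNA of whole cultures, fewer cells with the cassette expressed and less RNA per cell cannot be told apart. All 8 libraries list 0 for HMRA2, HMLALPHA1, HMLALPHA2, MATALPHA1 and MATALPHA2. They share sequence with other copies in the genome and the authors' handling of reads with several matches is not given in the sources used here, so their zeros give no level.

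IME4 (YGL192W, chromosome VII, 142246 to 144048), an mRNA methyltransferase needed for meiosis that haploid cells keep off, had the largest fitted rise. Its level was 61.8 and 78.5 in GPD-SIR3-A2Q and 132 and 117 in SIR3Δ, against 2.25 and 1.00 in GPD-SIR3 and 2.16 and 0.588 in WT. The classes were far apart and the competent libraries held 12 reads between them. The difference was 5.30 ± 0.34 (39.4-fold, limma adjusted p = 2.09e-05), with 98.7% of the sum of squares between classes. IME4, like HMRA1, passed the value filter only through defective libraries, so this adjusted p is no support beyond the reads. YGL193C, an open reading frame that starts 18 bases away on the opposite strand, moved the other way, at 5.25, 14.1, 6.20 and 2.42 in the defective libraries, against 54.9, 42.0, 48.4 and 37.0 in the competent ones (−2.73 ± 0.38, limma adjusted p = 0.00544). Whether the authors counted by strand is not given in the sources used here. Among 14 pairs of called genes that neighbour each other, IME4 and YGL193C were the only pair with opposite directions. The pairs comprised 11 in which both genes were higher and 2 in which both were lower. IME4 was the 1 member called of 9 tested genes of meiotic entry (median 0.10).

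The alpha-specific genes, which give alpha cells their pheromone and their receptor for a-factor, were lower in the defective class at 5 of 5. MF(ALPHA)2, which encodes alpha-factor, was at 120 and 133 in GPD-SIR3-A2Q and 6.20 and 6.78 in SIR3Δ, against 2129 and 1540 in GPD-SIR3 and 2174 and 2177 in WT. The classes did not overlap, and the SIR3Δ libraries lay below those of GPD-SIR3-A2Q (class difference −6.01 ± 0.12, 64.3-fold lower, limma adjusted p = 2.33e-08). MF(ALPHA)1, the major alpha-factor gene, was at 484 and 539 in GPD-SIR3-A2Q and 7.36 and 2.42 in SIR3Δ, against 3467 and 4273 in GPD-SIR3 and 2940 and 3154 in WT. The steps from SIR3Δ to GPD-SIR3-A2Q (6.58 ± 0.34) and between the classes (−6.03 ± 0.24) were alike in size, so MF(ALPHA)1 was mixed, with 62.6% between classes. Of its 50-base stretches, 14.3% lie elsewhere in the genome.

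STE3, the a-factor receptor, fell by 4.26 ± 0.11, with 258 ± 35.2 in GPD-SIR3-A2Q and 35.9 ± 5.62 in SIR3Δ, against 1621 ± 125 in GPD-SIR3 and 2160 ± 180 in WT (SD, n = 2 each). YLR040C, a gene of the same group, fell by 4.16 ± 0.20. SAG1, the alpha-agglutinin of the cell surface, fell by 3.51 ± 0.13 and stood apart in the group. Its level was 175 ± 12 in GPD-SIR3-A2Q and 111 ± 9.33 in SIR3Δ, against 1856 ± 332 in GPD-SIR3 and 1402 ± 294 in WT, and 97.7% of its sum of squares lay between classes. SAG1 was also the 1 of the 5 whose difference between the defective strains did not pass (GPD-SIR3-A2Q minus SIR3Δ 0.65 ± 0.18, limma adjusted p = 0.328). The list's median was −4.26, against −0.07 over all genes. Of 7 a-specific genes, 3 passed the filter on low values, with differences from −0.48 to −0.14 and 0 limma calls. None of the 3 reached an unadjusted p under 0.05, and edgeR, DESeq2 and limma-voom called 0.

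All 12 haploid-specific genes were lower, with a median of −2.92. The G-protein of the pheromone pathway fell in its 3 subunits. STE18, the gamma subunit, was at 16.3 and 12.1 in GPD-SIR3-A2Q, against 78.7 and 99.0 in GPD-SIR3 and 100 and 72.3 in WT. In SIR3Δ it had 1 read over the libraries, 0.248% of the competent level (95% exact interval 0.00626 to 1.39, counting error only), and its class difference was −4.38 ± 0.27. GPA1, the alpha subunit, was at 86.6 ± 4.59 in GPD-SIR3-A2Q and 29.9 ± 0.134 in SIR3Δ, against 571 ± 73.9 in GPD-SIR3 and 588 ± 123 in WT (−3.47 ± 0.13, limma adjusted p = 1.01e-06). STE4, the beta subunit, was at 388 and 386 in GPD-SIR3-A2Q and 47.7 and 51.8 in SIR3Δ, against 739 and 650 in GPD-SIR3 and 782 and 702 in WT. STE4 in GPD-SIR3-A2Q thus lay nearer to the competent strains than to SIR3Δ, with 56.2% of the sum of squares between classes and a difference of 2.94 ± 0.14 within the defective class (limma adjusted p = 1.04e-05).

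FUS3, the MAP kinase of mating, was at 102 and 74.4 in GPD-SIR3-A2Q and 6.20 and 2.91 in SIR3Δ, against 555 and 370 in GPD-SIR3 and 489 and 425 in WT (−4.40 ± 0.23, limma adjusted p = 6.71e-06). STE5, its scaffold, fell by 2.64 ± 0.15 and FAR1, which arrests the cell cycle, fell by 3.65 ± 0.17. AXL1, a protease that matures a-factor and marks the bud site, fell by 3.14 ± 0.13. STE12, the transcription factor of the pathway, had the smallest difference of the 12 (−0.89 ± 0.15, limma adjusted p = 0.0138), lost with any of 5 single libraries left out (at most 0.0928). Its GPD-SIR3 libraries were at 480 and 311.

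Haploid-specific genes outside the pathway fell too. HO, the endonuclease that switches mating type, was at 52.5 and 32.9 in GPD-SIR3-A2Q and 1.94 and 4.36 in SIR3Δ, against 254 and 164 in GPD-SIR3 and 212 and 246 in WT (−4.06 ± 0.26). RME1, the repressor of meiosis, fell by 2.71 ± 0.14, and NEJ1, a regulator of DNA end joining, fell by 2.53 ± 0.28. RDH54, a recombination helicase, fell by 1.75 ± 0.09. SIR3Δ was below GPD-SIR3-A2Q at all 12 of these genes, and at 10 the split of the defective class passed limma (0.365% of all tested genes were higher and 0.493% lower in GPD-SIR3-A2Q minus SIR3Δ). edgeR called 9 of the 12, DESeq2 10 and limma-voom 6. Over all 83 lower genes SIR3Δ was below GPD-SIR3-A2Q at 77, as it was at 59.8% of all tested genes. In GPD-SIR3 minus WT, limma called 0 of the 12 haploid-specific and 0 of the 5 alpha-specific genes (1.08% of all tested genes were lower and 0.238% higher). There, 0 and 1 of them reached an unadjusted p under 0.05, and edgeR, DESeq2 and limma-voom called 0.

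**Figure D2:**
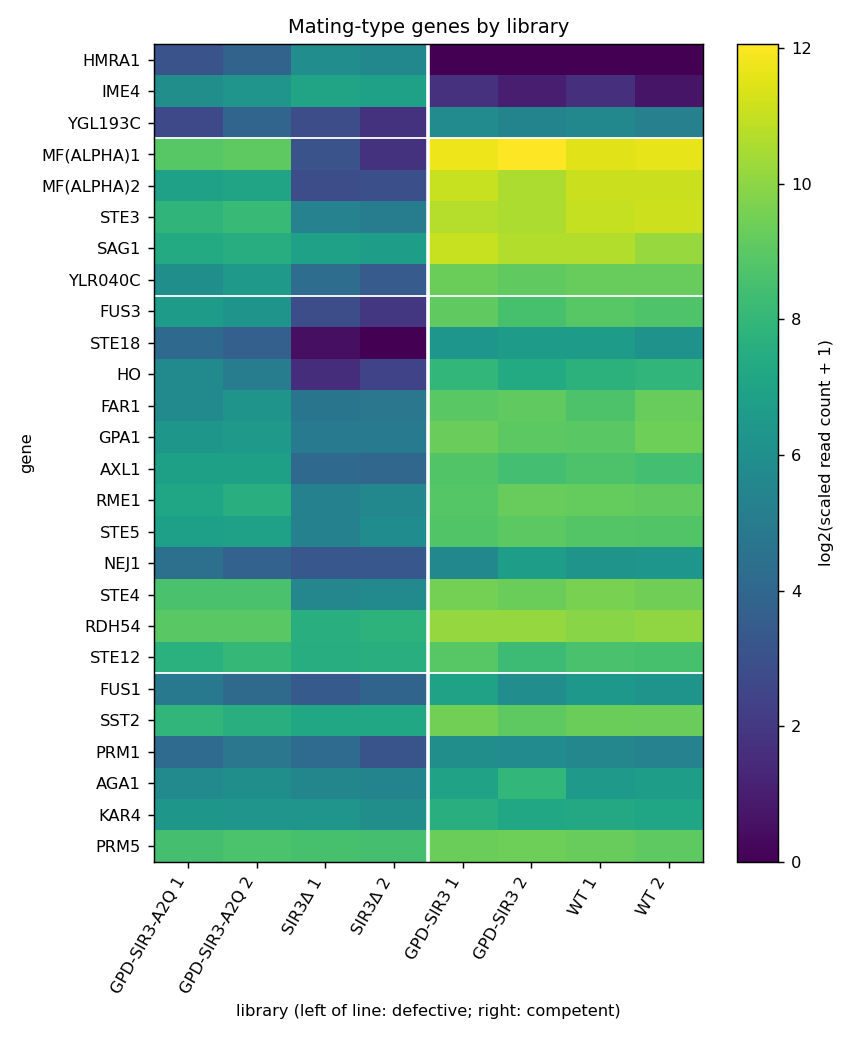
Log2 of the scaled read count plus 1 (colour) for mating-type genes (rows) in each library (columns, defective strains left of the white line). HMRA1 and IME4 are dark in all 4 competent libraries, and the alpha- and haploid-specific genes are darkest in SIR3Δ, with GPD-SIR3-A2Q between SIR3Δ and the competent strains.

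Pheromone response genes fell in part. Of 15 tested, 6 were lower (median −0.55), and the split of the defective class passed at 0 of 15 in limma, edgeR, DESeq2 and limma-voom, with 2 at an unadjusted p under 0.05. FUS1, a cell fusion protein with the elements printed above, was at 28.0 and 16.8 in GPD-SIR3-A2Q and 9.69 and 13.6 in SIR3Δ, against 121 and 59.0 in GPD-SIR3 and 84.7 and 75.3 in WT (−2.30 ± 0.28, limma adjusted p = 0.00256). SST2, which damps the G-protein signal, was at 245, 194, 143 and 147 in the defective libraries, against 718, 528, 648 and 622 in the competent ones (−1.81 ± 0.13, limma adjusted p = 4.17e-05). All 4 defective libraries lay below all competent ones at both genes. PRM1, a fusion protein (−1.60 ± 0.28), and AGA1, the agglutinin anchor (−1.35 ± 0.22), lost their calls with any of 5 and 4 single libraries left out. KAR4, a regulator of nuclear fusion, fell by 1.07 ± 0.14 and PRM5 by 0.72 ± 0.09.

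Class-wide lower genes outside the mating lists included OPI3, HXT7 and RHO1. OPI3, which makes phosphatidylcholine, was at 222, 329, 328 and 286 in the defective libraries, against 442, 503, 780 and 632 in the competent ones (−1.0 ± 0.14, limma adjusted p = 0.00641). HXT7, a high-affinity glucose transporter, fell by 1.42 ± 0.26, but 95.1% of its 50-base stretches lie elsewhere in the genome, and its call was lost with any of 5 libraries left out. RHO1, a GTPase of cell wall growth, had 99.9% of its sum of squares between the classes and a difference of −0.33 ± 0.07 (limma adjusted p = 0.0430), a call lost with any of 7 libraries left out. The RHO1 call also ended rescaled, in edgeR, DESeq2 and limma-voom, and with any single strain left out. GDH2, a glutamate dehydrogenase, was mixed (−0.60 ± 0.08), with 696 ± 32.7 in GPD-SIR3-A2Q and 517 ± 29.6 in SIR3Δ, against 1064 ± 98.2 in GPD-SIR3 and 784 ± 1.06 in WT (SD, n = 2 each). Its WT and GPD-SIR3-A2Q levels were thus closer to each other than to the other member of their class.

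The 5 strain-led lower genes were SIR3, INO1, HSP12, GAP1 and FPR4. INO1, of inositol synthesis, was at 59.5, 79.8, 53.5 and 60.6 in the defective libraries, against 232 and 223 in GPD-SIR3 and 48.4 and 52.9 in WT. WT lay below the defective libraries, and without GPD-SIR3 the difference turned from −0.77 to 0.30. HSP12, a stress-induced membrane protein, likewise had 141 and 216 in GPD-SIR3 and 44.1 and 41.7 in WT, and its difference of −0.89 turned to 0.11. GAP1, the general amino acid permease, was at 866 ± 67.5 in GPD-SIR3-A2Q and 1514 ± 94.1 in SIR3Δ, against 1308 ± 15.6 in GPD-SIR3 and 2626 ± 212 in WT (SD, n = 2 each), so the classes overlapped. FPR4, a prolyl isomerase, was at 446 ± 27.7 in SIR3Δ and between 646 and 755 in the other 6 libraries. The calls of INO1, HSP12 and FPR4 were each lost with any of 7 libraries left out. Those of HSP12 and FPR4 also ended with either other pseudocount, at a mean of at least 50, rescaled, in edgeR and in limma-voom, and FPR4's in DESeq2.

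The higher genes lay near chromosome ends. Of the 52, 40 lay within 30 kb of an end and 35 within 20 kb, against 2 and 0 of the 83 lower genes. Within 20 kb, 3 of 113 tested genes were lower at an unadjusted p under 0.05, and edgeR, DESeq2 and limma-voom called 0 lower. Below 10 kb, 19 of 35 tested genes were higher (54.3%, median difference 1.32), and from 10 to 20 kb 16 of 78 were (20.5%, median 0.21). From 20 to 30 kb it was 5 of 120 (4.17%, median −0.02), and beyond 50 kb 11 of 4927 (0.223%, median −0.08). With WT as the only competent strain the medians below 10 kb and from 10 to 20 kb were −0.04 and −0.01, and 1 and 2 genes were higher. The medians of GPD-SIR3 minus WT in these bins were −2.47 and −0.27.

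**Figure D3:**
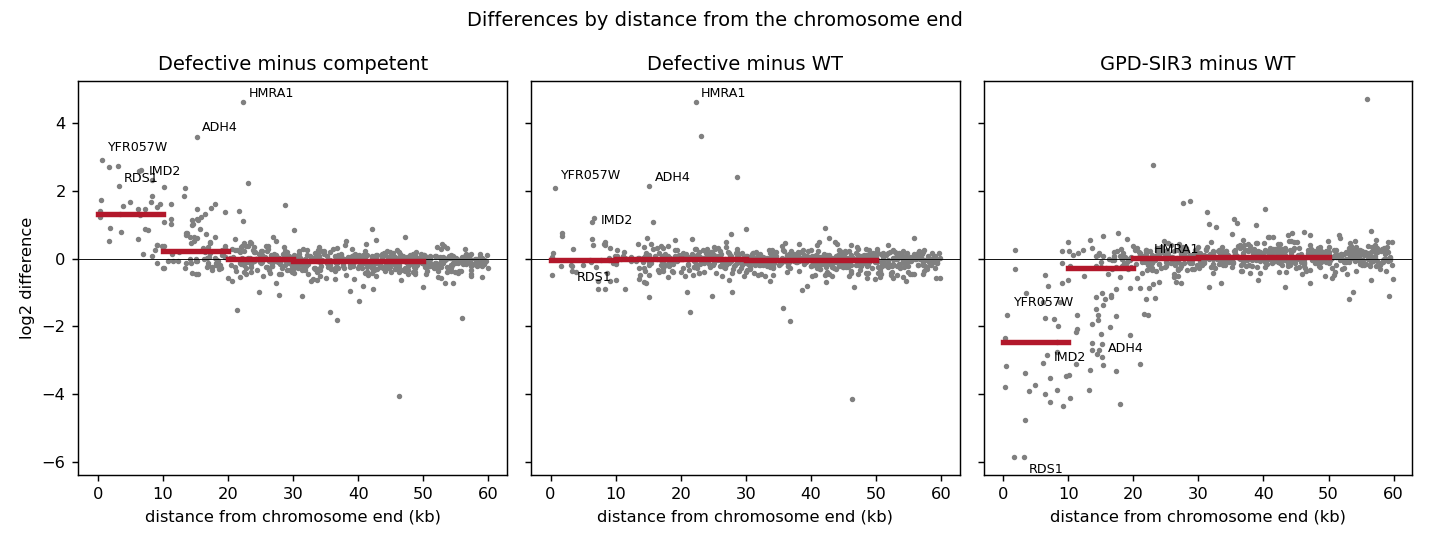
Log2 differences (vertical) by distance from the nearest chromosome end in kb (horizontal, to 60 kb) for defective minus competent, defective minus WT, and GPD-SIR3 minus WT, with each point 1 gene and red lines the medians of the bins. Below 10 kb the median is 1.32 against both competent strains and −0.04 against WT alone.

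RDS1, a putative zinc-cluster transcription factor gene 3.16 kb from the end of chromosome III, was at 183, 178, 191 and 206 in the defective libraries, against 1.80 and 4 in GPD-SIR3 and 195 and 236 in WT. Its class difference of 2.74 ± 0.20 (limma adjusted p = 5.14e-05) turned to −0.18 without GPD-SIR3 (limma adjusted p = 0.900). AAD3, a putative aryl-alcohol dehydrogenase next to it, behaved alike, with 2.71 ± 0.31 turning to −0.22, and 25.8% of its 50-base stretches lie elsewhere in the genome.

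The COS genes, which encode endosomal membrane proteins, were higher at 5 of 9 tested (median 1.32), all of them strain-led. COS8 was at 457, 464, 631 and 525 in the defective libraries, against 24.7 and 17.0 in GPD-SIR3 and 380 and 312 in WT. WT lay below all 4 defective libraries, and far above GPD-SIR3. The class difference was 2.58 ± 0.14 (limma adjusted p = 9.44e-06). For COS10 WT was at 324 and 254, against 172 to 308 in the defective libraries (2.15 ± 0.20, turning to −0.23 without GPD-SIR3). COS1 (2.33 ± 0.22) and COS6 (1.66 ± 0.10) lay as COS8 did, and over 10% of the 50-base stretches of COS1, COS6 and COS8 lie elsewhere in the genome.

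Of 15 phosphate regulon genes, 4 were higher (median 0.15): GIT1 (1.62 ± 0.22), PHO12 (1.51 ± 0.20), PHO11 (1.32 ± 0.19) and PHO89 (0.65 ± 0.12). All 4 turned sign when WT alone stood for the competent class, to −0.53, −0.66, −0.36 and −0.71. PHO89, a sodium-phosphate cotransporter, was at 1014 and 1034 in GPD-SIR3-A2Q and 1844 and 1404 in SIR3Δ, against 371 and 277 in GPD-SIR3 and 2053 and 2140 in WT. WT was thus the highest strain and GPD-SIR3 the lowest, and only 9.72% of the sum of squares lay between classes. PHO11 and PHO12 are near-identical copies, so their reads may be shared. ARN2, a siderophore transporter, was at 269 ± 27.9 in GPD-SIR3-A2Q and 275 ± 21.6 in SIR3Δ, against 28.2 ± 5.93 in GPD-SIR3 and 193 ± 6.84 in WT (SD, n = 2 each). YOR390W, at 0 and 2.00 in GPD-SIR3, was at 15.1 to 34.4 in the other 6 libraries, its call was lost with any of 6 libraries left out, and 79.4% of its 50-base stretches lie elsewhere in the genome.

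Of the genes near chromosome ends, ADH4, an alcohol dehydrogenase 15.2 kb from the left end of chromosome VII, was higher in the defective strains than in each competent strain. It was at 1072 and 1092 in GPD-SIR3-A2Q and 1704 and 1558 in SIR3Δ, against 46.3 and 33.0 in GPD-SIR3 and 313 and 290 in WT. The levels thus stood in 3 steps, with WT between GPD-SIR3 and the defective strains (class difference 3.59 ± 0.12, 12.1-fold, limma adjusted p = 5.01e-07, 74.5% between classes). Against WT alone the difference was 2.14 (limma adjusted p = 5.84e-05). IMD2, an IMP dehydrogenase, showed the same order, at 868, 852, 1107 and 940 in the defective libraries, against 67.5 and 46.0 in GPD-SIR3 and 483 and 346 in WT. Its difference of 2.62 ± 0.15 was 1.19 against WT alone (limma adjusted p = 0.0219), and 33.7% of its 50-base stretches lie elsewhere in the genome.

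YFR057W, 0.645 kb from the right end of chromosome VI, was the class-wide higher gene nearest to an end. It was at 9.91 and 8.72 in GPD-SIR3-A2Q and 19.0 and 14.5 in SIR3Δ, against 0 reads in both GPD-SIR3 libraries and 2.59 and 1.76 in WT. These values rest on 109 reads in the defective class and 9 in WT. The classes did not overlap, and 83.6% of the sum of squares lay between them. YFR057W passed the value filter only through the SIR3Δ libraries, and the GPD-SIR3 zeros add no spread. Its limma call (adjusted p = 0.0126) is therefore no support beyond the reads. The call was lost with any of 5 libraries left out and against WT alone (limma adjusted p = 0.285). CHA1, which breaks down serine and threonine and lies 15.8 kb from the left end of chromosome III, was at 1093, 891, 712 and 933 in the defective libraries, against 372, 321, 435 and 409 in the competent ones. Its difference was 1.23 ± 0.12 (2.34-fold, limma adjusted p = 4.70e-04), and it held against WT alone (1.09, limma adjusted p = 0.00818) and with any single library left out (at most 0.00555).

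For YIL169C and HPF1, relatives that encode cell-wall mannoproteins, WT and not GPD-SIR3 stood apart. YIL169C was at 2296 and 1716 in GPD-SIR3-A2Q and 3993 and 2847 in SIR3Δ, against 1484 and 1375 in GPD-SIR3 and 235 and 185 in WT. GPD-SIR3 lay below both defective strains (SIR3Δ minus GPD-SIR3 1.24 ± 0.20, limma adjusted p = 0.00821) and far above WT (class difference 2.24 ± 0.14, limma adjusted p = 2.06e-05, 54.9% between classes). HPF1 had the same order (1.57 ± 0.16), and its call was lost when WT was left out. Of their 50-base stretches, 17.3% and 13.8% lie elsewhere in the genome, where the 2 genes may share reads.

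**Figure D4:**
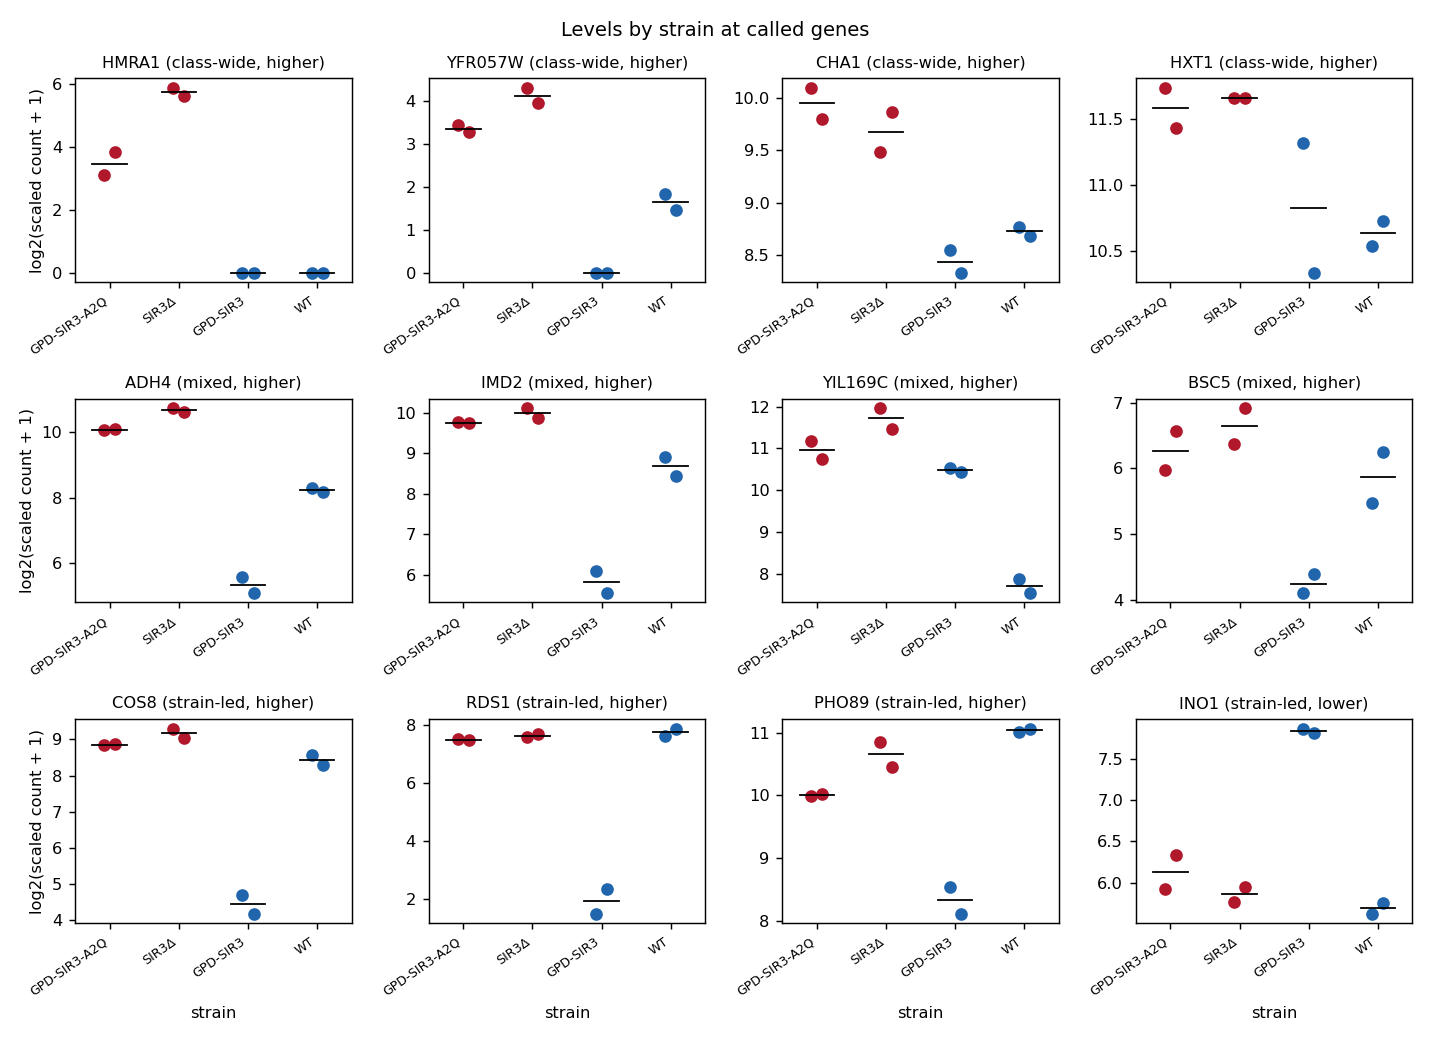
Log2 of the scaled read count plus 1 in each library (points) and strain (columns, defective strains in red on the left, competent in blue) with black lines at the strain means, for 12 called genes. The vertical axes differ and need not start at 0. HMRA1 and CHA1 separate the classes, ADH4 and IMD2 stand in steps, RDS1 is low in GPD-SIR3, PHO89 is lowest in GPD-SIR3 and highest in WT, and YIL169C is low in WT.

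Away from the ends, few genes were higher. Of the 9 class-wide genes, 6 lay beyond 30 kb, and of these IME4 alone kept its call with any single library left out. The glucose transporter genes HXT1 (0.89 ± 0.19) and HXT3 (0.47 ± 0.09) were higher and HXT7 lower among 11 tested hexose transporters (median −0.25). HXT1 was at 3401, 2748, 3224 and 3216 in the defective libraries, against 2543 and 1294 in GPD-SIR3 and 1488 and 1698 in WT. The classes did not overlap, but the GPD-SIR3 libraries were far apart, and the calls of HXT1 and HXT3 were each lost with any of 6 libraries left out. FRE4, a ferric reductase (0.88 ± 0.18), NRT1, a nicotinamide riboside transporter (0.51 ± 0.11), and URA3, of pyrimidine synthesis (0.75 ± 0.12), lost theirs with any of 6, 7 and 4.

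Between the classes, limma called higher 1 of 11 tested arginine genes, 2 of 10 lysine genes and 1 of 40 genes of other amino acids. It called 0 of them lower. Over all tested genes, 0.950% were called higher. In these lists 4, 6 and 10 genes were higher, and 1, 0 and 0 lower, at an unadjusted p under 0.05. Of all 5473 genes, 871 passed that limit in either direction. DESeq2 called 3, 4 and 7 of the lists higher, and edgeR and limma-voom 1, 2 and 2 each. ARG1, argininosuccinate synthetase, was at 631 and 631 in GPD-SIR3-A2Q and 2136 and 3203 in SIR3Δ, against 483 and 552 in GPD-SIR3 and 1065 and 1424 in WT. Each GPD strain lay below the other strain of its class, and the class difference of 0.69 ± 0.14 (limma adjusted p = 0.0437, 14.1% between classes) turned to −0.34 without SIR3Δ. In lysine synthesis 2 of 10 tested genes were higher, LYS20 (0.60 ± 0.10) and LYS9 (0.42 ± 0.07), with SIR3Δ the highest strain at both, at 2621 ± 8.24 and 2294 ± 27.0. Among 40 genes of other amino acids 1 was, LEU9 (0.49 ± 0.07). The sulfur and methionine genes had 0 limma calls between classes among 24 tested, with 2 higher and 3 lower at an unadjusted p under 0.05. DESeq2 called 2 of them, edgeR 1 and limma-voom 1. In GPD-SIR3-A2Q minus SIR3Δ limma called 6 of the 24 lower, against 0.493% of all tested genes. In GPD-SIR3 minus WT it called 6 of the 24 lower, against 1.08% of all tested genes.

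Of the 30 gene lists examined, 12 had no call between classes, with 161 tested genes. For the Y′ helicase genes, 1 of these 12 lists, 0 of 8 genes were tested, so that list could hold no call. Of 29 seripauperin genes, 8 were tested. The 12 lists include the silencing and telomere-binding proteins (20 tested, median −0.02), the genes beside SIR3 (5 tested, median 0.03), the respiratory chain, glycolysis and the histones. At an unadjusted p under 0.05, 7 of the 161 were higher and 20 lower. DESeq2 called 2 higher and 2 lower, limma-voom 2 higher and edgeR 1 higher.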

How the data were processed

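Total RNA libraries of 4 strains (2 each) were grouped by their titles. Per the labels' protocols, paired-end SOLiD libraries were made from fragmented, size-selected RNA. TopHat 1.4.1 and build R64 are named in the submitters' processing notes. The sources used here do not give the counting tool or the use of strand. For 7 libraries the deposited values are a signal, namely read counts multiplied by a factor of the library, so that genes sum to 7006670. Those of GPD-SIR3 2 are the authors' plain counts. Division by that factor gave whole reads at 100% of values, within 0.01 of a read, and depth on genes was 7006670 to 18077542 reads. Another 16 columns of per-sample values were not used. Of 5798 genes, 5789 matched the reference annotation by name and 5757 had equal coordinates.

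limma 3.58.1 (trend, R 4.3.3) was run on log2(value + 1) of 5473 genes, with 4 strain groups in 1 model and 4 residual degrees of freedom. A gene was called at a two-sided p below 0.05 after Benjamini-Hochberg adjustment. The design had called for limma if the table was scaled. Defective minus competent was the mean of 2 strains minus the mean of the other 2. Between the libraries of a strain, chi-square over its degrees of freedom was 16.2 to 43, far above sampling noise. Each library was treated as a sample, though this excess does not show that the libraries are separate cultures. Replicate numbers in the titles were not used to pair the libraries in the main model. Alternatives were edgeR 4.0.16, DESeq2 1.42.0 and limma-voom on the recovered reads, other pseudocounts and filters, rescaling, and fits without each library. Where a strain was left out, it was dropped from the contrast only, and its libraries stayed in the fit. The limma script was first tested on simulated data with known changes. The ratio of a gene with 1 read is given with its 95% exact interval. Such intervals and the floor of 3 counts cover counting error only.

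The strains, the gene lists and the tests were chosen with earlier results of these data known. Named genes are SIR3, SIR1, SIR2, SIR4 and the cassette and MAT genes. Next are the called genes with the 12 largest differences in each direction, provided that the mean is 10 or more and the classes do not overlap, then the 5 largest mixed and strain-led genes in each direction, up to 4 called members per list, and HPF1, of the called genes within 30 kb the farthest from its end. YFR057W, NRT1, URA3, RHO1, STE4, STE5, STE12, RME1, NEJ1, RDH54, PDE1, KAR4 and PRM5 were chosen after their values were seen. So were ICS2, TOS1 and the genes at the filter limit. A gene with over 10% of its 50-base stretches elsewhere in the genome may share reads.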

Additional observations from a re-analysis of the deposited data

Results flagged for a closer look

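For 13 of the genes that the naming rule picks, the strains of the defective class also differed from each other, by limma's test of GPD-SIR3-A2Q minus SIR3Δ over 5473 genes. SIR3 had a difference of 8.40 ± 0.13 (limma adjusted p = 2.59e-09), as the genotypes set it. The genes of mating type listed next were higher in GPD-SIR3-A2Q than in SIR3Δ while lower in both than in the competent strains.

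The alpha-specific genes among them were MF(ALPHA)1 (6.58 ± 0.34, limma adjusted p = 1.81e-05), MF(ALPHA)2 (4.09 ± 0.17, limma adjusted p = 7.31e-06), STE3 (2.81 ± 0.16, limma adjusted p = 3.73e-05) and YLR040C (2.35 ± 0.28, limma adjusted p = 0.00437). The haploid-specific genes among them were FUS3 (4.06 ± 0.32, limma adjusted p = 3.96e-04), STE18 (3.68 ± 0.38, limma adjusted p = 0.0021), HO (3.42 ± 0.37, limma adjusted p = 0.00237), AXL1 (2.78 ± 0.18, limma adjusted p = 9.35e-05), GPA1 (1.5 ± 0.19, limma adjusted p = 0.00595) and FAR1 (1.30 ± 0.23, limma adjusted p = 0.0456). Other genes described in the report passed the same test, with differences of 2.94 ± 0.14 at STE4 (limma adjusted p = 1.04e-05), 1.88 ± 0.20 at RME1 (limma adjusted p = 0.00237), 1.26 ± 0.12 at RDH54 (limma adjusted p = 0.0015) and 1.27 ± 0.21 at STE5 (limma adjusted p = 0.0264). HMRA1 was lower in GPD-SIR3-A2Q than in SIR3Δ, a difference that passed DESeq2 and limma-voom but neither limma nor edgeR.

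GAP1 and ARG1 were lower in GPD-SIR3-A2Q than in SIR3Δ, by −0.81 ± 0.11 (limma adjusted p = 0.0125) and −2.05 ± 0.20 (limma adjusted p = 0.0015) on the log2 scale. Each strain has 2 libraries, too few to single out an extreme library of a strain.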

How the results depend on the processing

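The main counts were 52 higher and 83 lower between classes, 20 and 27 in GPD-SIR3-A2Q minus SIR3Δ, and 13 and 59 in GPD-SIR3 minus WT. Between classes, a fit with 2 classes and no strain term gave 4 higher and 29 lower, since the differences between strains of a class then count as error. Leaving GPD-SIR3 out gave 9 and 34, leaving SIR3Δ out 26 and 33, and leaving WT out 81 higher. DESeq2 gave 92 higher between classes, 58 lower in GPD-SIR3-A2Q minus SIR3Δ, and 24 higher and 98 lower in GPD-SIR3 minus WT, and limma-voom gave 13 higher in GPD-SIR3-A2Q minus SIR3Δ. The cause of these was not tested. With 1 library left out, counts ranged from 22 to 62 higher and 39 to 126 lower between classes, 13 to 19 and 4 to 27 in GPD-SIR3-A2Q minus SIR3Δ, and 5 to 15 and 33 to 53 in GPD-SIR3 minus WT, with the lone library of a strain assumed to vary like the others.

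The deviations of same-numbered libraries correlated at 0.548 between SIR3Δ and WT and at 0.302 between GPD-SIR3-A2Q and GPD-SIR3. In the other pairs of strains the correlation was −0.033 to 0.081. The main model held no replicate term, and the cause of these correlations was not tested. With the replicate block the counts were 63 and 125 between classes, 22 and 36 in GPD-SIR3-A2Q minus SIR3Δ, and 30 and 81 in GPD-SIR3 minus WT. A filter at a mean of 50 gave 37 and 74, a rescaling that moved the median of all genes to 0 gave 59 and 67, and edgeR gave 59 and 68 between classes.

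Of the 52 higher genes 20, and of the 83 lower genes 37, kept their call with any single library left out. Among the genes that the naming rule picks, the difference without GPD-SIR3 turned at RDS1 (−0.18), AAD3 (−0.22), COS10 (−0.23), GIT1 (−0.53), PHO12 (−0.66), PHO11 (−0.36), PHO89 (−0.71), HSP12 (0.11), INO1 (0.30) and SIR3 (0.62). Without SIR3Δ it turned at SIR3 (2.47) and ARG1 (−0.34). SIR1, SIR2 and SIR4, not called, crossed 0. SIR1 was at 0.06 rescaled, 0.05 in edgeR and DESeq2, 0.03 in limma-voom, 0.03 without SIR3Δ and 0.14 without GPD-SIR3, and at −0.15 to 0.11 with 1 library left out. SIR2 was at −0.07 without GPD-SIR3-A2Q, −0.35 without GPD-SIR3, and −0.05 to 0.16 with 1 library left out. SIR4 was at 0.02 rescaled, in DESeq2 and without SIR3Δ or GPD-SIR3, and 0.01 in edgeR and limma-voom. Depth limits HMRA1 (285 reads in the defective class and 0 in the competent), YFR057W (109 and 9) and STE18 (1 read in SIR3Δ).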
